A study of Mus musculus with 4 samples.

Results

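Small leucine-rich proteoglycans are secreted matrix proteins with a core of leucine-rich repeats, and several carry chondroitin, dermatan or keratan sulfate chains. Many bind collagen and set the width and spacing of its fibrils, and decorin and biglycan also bind growth factors of the TGF-beta family and cell surface receptors. In the wall of hollow organs they are made mainly by fibroblasts and smooth muscle cells. The 10 genes described here (Lum, Dcn, Bgn, Fmod, Ogn, Omd, Aspn, Prelp, Podn and Chad) were taken by name, and each was measured by 1 probe set with exactly 1 gene symbol, out of 19296 genes so measured.

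The 4 samples were whole ureters of male mice on a mixed 129Sv/C57BL6 background, with 1 mouse per array. The 2 knockout mice were miR-143/145-/-, lacking the genes of 2 microRNAs that are abundant in smooth muscle; they were 2.5 months old and had hydronephrosis, a swelling of the kidney by retained urine. The 2 wild type mice were miR-143/145+/+, 4.5 months old, with kidneys described as normal. Genotype, age and kidney state changed together and cannot be told apart. The labels do not say how the deletion was made or whether mice were littermates. The values are log2 expression values deposited after RMA, a method that brings the arrays to a common scale, and they do not rank one gene's level against another's.

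Facts of the whole series were as follows. The deleted genes followed the labels: Mir145a had log2 values of 4.60 and 5.02 in knockout ureter, against 8.28 and 8.42 in wild type ureter, and Mir143 had 6.48 and 6.53, against 7.64 and 7.85. A background level of log2 6.58 was set at the 95th percentile of 1024 olfactory receptor genes. Array medians lay between 7.81 and 7.89. The lower quartile was 6.26 and 6.27 on the knockout arrays and 6.36 and 6.45 on the wild type arrays, so dim genes read lower in knockout as a whole. Limma (Benjamini-Hochberg adjusted p under 0.05) passed 459 genes, or 2.38%, with 367 higher in knockout ureter and 92 lower. After each array was centred on its median, the split was 245 higher to 148 lower. Precision is limited throughout by the number of arrays, 2 per genotype, and a gene that did not pass is not thereby unchanged.

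Every smooth muscle, urothelium and fibroblast marker tested lay above background on at least 1 array, except for Fap, a protease of activated fibroblasts, which lay below it on all 4. The mean log2 level of the 13 fibroblast markers tested was 9.62 and 9.63 in knockout and 9.44 and 9.55 in wild type. That of the 10 smooth muscle markers was 11.51 and 11.33 in knockout and 11.20 and 11.11 in wild type, and that of the 12 urothelium markers was 11.87 and 12.24, against 11.28 and 11.57. The 9 adipocyte markers were also bright, at 12.36 and 11.86 in knockout and 12.66 and 12.56 in wild type. Kidney markers stood apart in knockout replicate 1, with a mean of 8.39, while the other knockout mouse had 6.59 and the wild type mice 6.41 and 7.11.

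In knockout ureter, 3 of the 10 proteoglycan genes rose and none fell. Lum, which encodes lumican, a keratan sulfate proteoglycan of collagen fibrils, rose 3.25-fold. Fmod, which encodes fibromodulin, a relative of lumican that binds the same collagens, rose 2.20-fold. Aspn, which encodes asporin, a collagen-binding protein that lacks the chain carried by decorin, rose 2.05-fold. The remaining 7 genes did not pass the test, among them Dcn, for decorin, with a difference of 0.09 on the log2 scale. The 3 calls stand beside 1.90% of all 19296 genes that passed and were higher in knockout, and 0.477% that passed and were lower (2.38% in either direction). A positive difference was seen for 7 of the 10, and for 47.1% of all genes. Omd, which lay below background on all 4 arrays, is among those with a positive difference. The median log2 difference was 0.19 over the 10 genes and -0.02 over all genes. The 10 genes share the same 4 arrays and are not replicates of one another. In whole ureter, more or fewer cells of a type and more or less RNA per cell cannot be told apart.

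**Figure D1:**
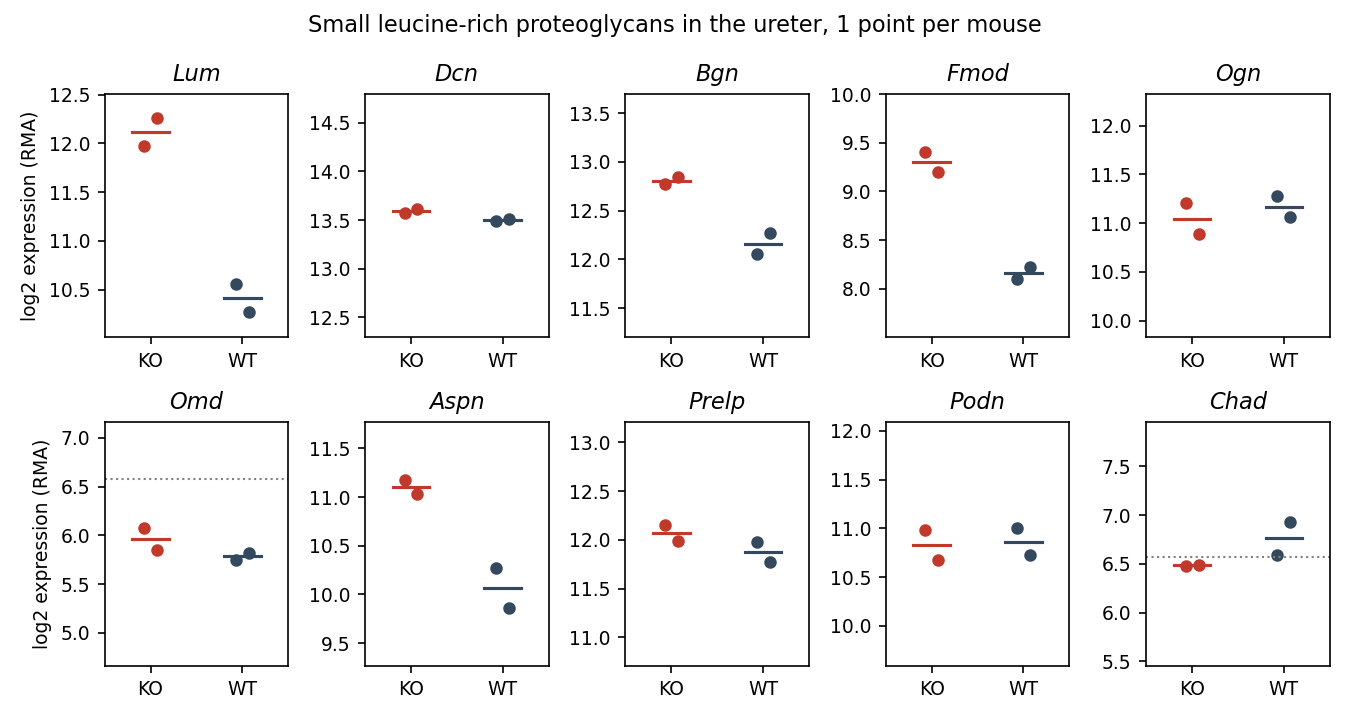
Log2 expression (RMA values) of the 10 proteoglycan genes, with 1 point per mouse and a bar at the mean of the 2 mice, knockout (KO, red) left of wild type (WT, dark). Every panel spans the same height in log2 units but starts at its own level, and the dotted line is the background level of log2 6.58. The points of the genotypes are far apart for Lum, Fmod, Aspn and Bgn and close or mixed for Dcn, Ogn, Prelp and Podn.

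Promoter sequences are shown for Fmod and Aspn, which rose, and for Prelp and Ogn, which did not pass the test. Prelp lies beside Fmod on its chromosome, and Ogn lies near Aspn with Omd between them. The sequences are the 150 bases before the annotated start, from RefSeq on assembly GRCm38.p6, where 8 of the 10 genes had an entry. Capitals mark matches to the E-box motif CANNTG, a site for basic helix-loop-helix factors.
Fmod (chr1:134037104-134037253, plus strand): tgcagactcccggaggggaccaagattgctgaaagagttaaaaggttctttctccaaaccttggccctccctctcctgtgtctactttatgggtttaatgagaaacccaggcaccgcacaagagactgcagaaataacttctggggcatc
Prelp (chr1:133921402-133921551, minus strand): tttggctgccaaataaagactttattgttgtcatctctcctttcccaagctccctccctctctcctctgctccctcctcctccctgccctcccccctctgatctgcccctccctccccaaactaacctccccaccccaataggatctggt
Aspn (chr13:49544293-49544442, plus strand): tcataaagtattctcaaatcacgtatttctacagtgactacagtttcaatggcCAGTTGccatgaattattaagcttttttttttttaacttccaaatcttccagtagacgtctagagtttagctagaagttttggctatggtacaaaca
Ogn (chr13:49607865-49608014, plus strand): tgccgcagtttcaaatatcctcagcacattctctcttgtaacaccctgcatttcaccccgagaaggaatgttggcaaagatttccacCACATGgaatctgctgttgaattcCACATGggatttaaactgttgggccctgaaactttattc

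The search covered 4 motifs on both strands, with overlaps between motifs allowed, chosen after the expression values were seen. CANNTG matched in Aspn, Bgn, Chad, Ogn and Podn, that is in 5 of the 8 genes, and in 47.7% of the 32851 promoters of the table. A gene with several promoter entries, such as Podn, was counted if any of them matched, while the shares of all promoters count each entry singly. The TATA motif TATAAA matched in Chad alone of the 8, and in 7.57% of all promoters. The AP-1 motif TGANTCA and the CArG box, which serum response factor binds in smooth muscle genes, matched in 0 of the 8, and in 4.24% and 0.916% of all promoters. Of the sequences printed, Aspn thus held 1 match and Ogn 2, with none in Fmod or Prelp. A match is a description of these letters only.

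Of lumican, fibromodulin, osteomodulin and PRELP (class II of the family), the genes of lumican and fibromodulin passed the test. Lum (probe set 10365983) had log2 values of 11.97 and 12.26 in knockout ureter, against 10.56 and 10.27 in wild type ureter. Both knockout mice lay above both wild type mice, and the gap between the genotypes exceeded the distance between mice of a genotype. The log2 difference was 1.70 (SE 0.16, 95% interval 1.33 to 2.07; limma adjusted p = 0.0147), which placed Lum 13th of all genes by p and 18th by the size of its rise. Fmod (probe set 10349947) had 9.41 and 9.20 in knockout, against 8.10 and 8.22 in wild type. Its genotypes did not overlap either, with a log2 difference of 1.14 (SE 0.13, 95% interval 0.84 to 1.44; limma adjusted p = 0.0204).

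Prelp, whose protein anchors basement membranes to connective tissue, had 12.15 and 11.99 in knockout, against 11.97 and 11.77 in wild type. The lower knockout mouse and the higher wild type mouse were almost level, and the log2 difference of 0.20 (95% interval -0.11 to 0.51) did not pass (limma adjusted p = 0.371). Omd, which encodes osteomodulin, a keratan sulfate proteoglycan of bone, lay below background on all 4 arrays, with 6.08 and 5.85 in knockout, against 5.75 and 5.82 in wild type. No fold is given for it.

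Of decorin, biglycan and asporin (class I), asporin passed the test. Aspn (probe set 10405047) had 11.18 and 11.04 in knockout ureter, against 10.27 and 9.86 in wild type ureter. The knockout mice were close together and above both wild type mice, which lay further apart. The log2 difference was 1.04 (SE 0.16, 95% interval 0.66 to 1.42; limma adjusted p = 0.0362). Bgn (probe set 10600169), for biglycan, which carries chondroitin or dermatan sulfate chains, had 12.77 and 12.85 in knockout, against 12.05 and 12.27 in wild type. Its genotypes did not overlap, and its fold of 1.57 (95% interval 1.27 to 1.93) missed the threshold (limma adjusted p = 0.0521). It passed when dim genes were left out (adjusted p = 0.0447), with robust eBayes (0.0371) and without knockout replicate 1 (0.0284), and over the 13 alternatives the adjusted p ranged from 0.0223 to 0.216.

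Dcn (probe set 10365974) had 13.57 and 13.61 in knockout, against 13.49 and 13.51 in wild type. The mice of each genotype were almost level, and the knockout values lay only just above the wild type ones. The log2 difference of 0.09 had a 95% interval of -0.17 to 0.36, so a rise of the size seen for Aspn lay outside it (limma adjusted p = 0.627).

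Osteoglycin, podocan and chondroadherin, from other classes, did not pass. Ogn, whose product is also called mimecan, had 11.20 and 10.88 in knockout, against 11.28 and 11.06 in wild type. Podn, whose product podocan was first described in kidney, had 10.98 and 10.68 in knockout, against 11.00 and 10.72 in wild type. For both genes the values of the genotypes overlapped, and mice of the same genotype lay further apart than the genotype means. The log2 difference was -0.12 (95% interval -0.48 to 0.23) for Ogn and -0.03 (95% interval -0.41 to 0.34) for Podn, at limma adjusted p values of 0.633 and 0.911. Chad, which encodes chondroadherin, a cartilage protein that binds cells and collagen, had 6.48 and 6.49 in knockout, both below background, against 6.59 and 6.93 in wild type. The log2 difference of Chad was -0.27, and its 95% interval of -0.61 to 0.06 spans 0 (limma adjusted p = 0.262). No smallest size of a drop is therefore given. Dim genes as a whole read lower in knockout.

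Over the 10 genes, both knockout values lay above both wild type values for 7, where 28.0% of all genes did so, and below them for 1, Chad, where 32.0% of all genes did so. Besides the genes that rose these were Bgn and, with small differences, Dcn, Prelp and Omd, the last below background on all arrays. At an unadjusted limma p under 0.05, 4 of the 10 were higher, Bgn being the addition, and 0 were lower; of all genes 12.7% were higher and 13.8% lower by that measure. The change of Lum, the member with the largest rise, was set against that of the others within each array, as the log2 value of Lum minus that of the other gene. It exceeded that of Fmod by 0.56, that of Aspn by 0.66, that of Bgn by 1.05 and that of Dcn by 1.61 on the log2 scale. The exact two-sided permutation p was 0.333 for each of the 9 comparisons, also after adjustment. It is the smallest that 2 against 2 arrays can give, so these differences in change are a description.

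**Figure D2:**
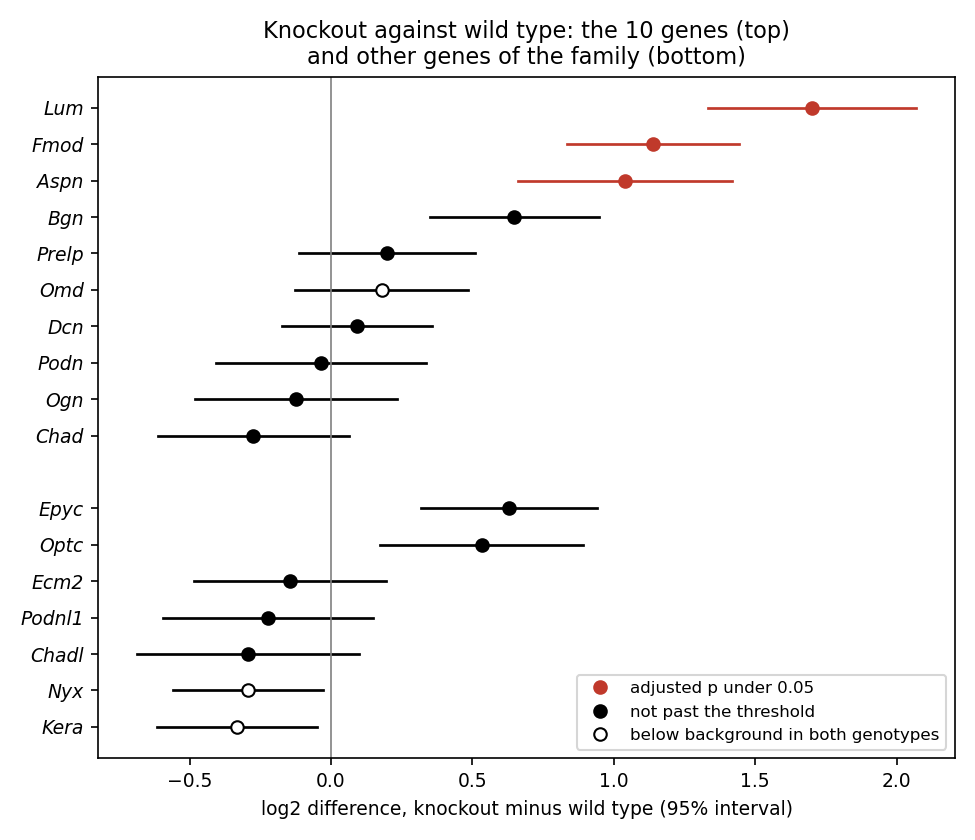
Log2 difference, knockout minus wild type, with its 95% interval from limma, for the 10 genes (top) and 7 other genes of the family (bottom). Lum, Fmod and Aspn (red) passed an adjusted p of 0.05, and the intervals of the other genes named in the upper block, apart from Bgn, span 0.

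Of 8 further genes of the family, 7 were measured by a probe set with 1 symbol, and Tsku was not analysed here. None of the 7 passed over all genes in the limma fit. The unadjusted limma p was below 0.05 for 2 higher genes and for 2 lower ones, Nyx and Kera. Of all genes 12.7% were higher and 13.8% lower by that measure. Epyc, for epiphycan, a proteoglycan of growth cartilage, had 8.11 and 7.97 in knockout, against 7.53 and 7.30 in wild type (limma adjusted p = 0.0577). It passed with dim genes left out (adjusted p = 0.0492) and with robust eBayes (0.0424), within a range of 0.0236 to 0.252 over the alternatives. Optc, for opticin, known from the vitreous of the eye, had 8.29 and 7.96 in knockout, against 7.49 and 7.69 in wild type (limma adjusted p = 0.0941). Both of these had genotypes that did not overlap, with knockout higher. Ecm2, which lies beside Aspn, had 9.36 and 9.13 in knockout, against 9.52 and 9.26 in wild type, with overlapping genotypes. Chadl and Podnl1 had log2 differences of -0.29 and -0.22, and Nyx and Kera, genes of the retina and cornea, lay below background on all arrays.

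Many family genes sit side by side in 3 groups, with no other protein-coding gene between them in assembly GRCm38.p6. On chromosome 1 the order was Optc, Prelp and Fmod, on chromosome 10 Dcn, Lum, Kera and Epyc, and on chromosome 13 Ecm2, Aspn, Omd and Ogn. Each of the 3 groups held 1 gene that passed the test. Lum rose by 1.70 while its neighbour Dcn differed by 0.09, and Fmod rose by 1.14 while its neighbour Prelp differed by 0.20. Aspn rose by 1.04, and Ecm2 beside it differed by -0.14. In the same groups Epyc differed by 0.63 (95% interval 0.32 to 0.94) and Optc by 0.53 (95% interval 0.17 to 0.89), without passing. Kera, beside Lum, and Omd, beside Aspn, lay below background on all arrays, so a change in them was not measured. Differences in change between neighbours were not tested, apart from that of Lum and Dcn given above.

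**Figure D3:**
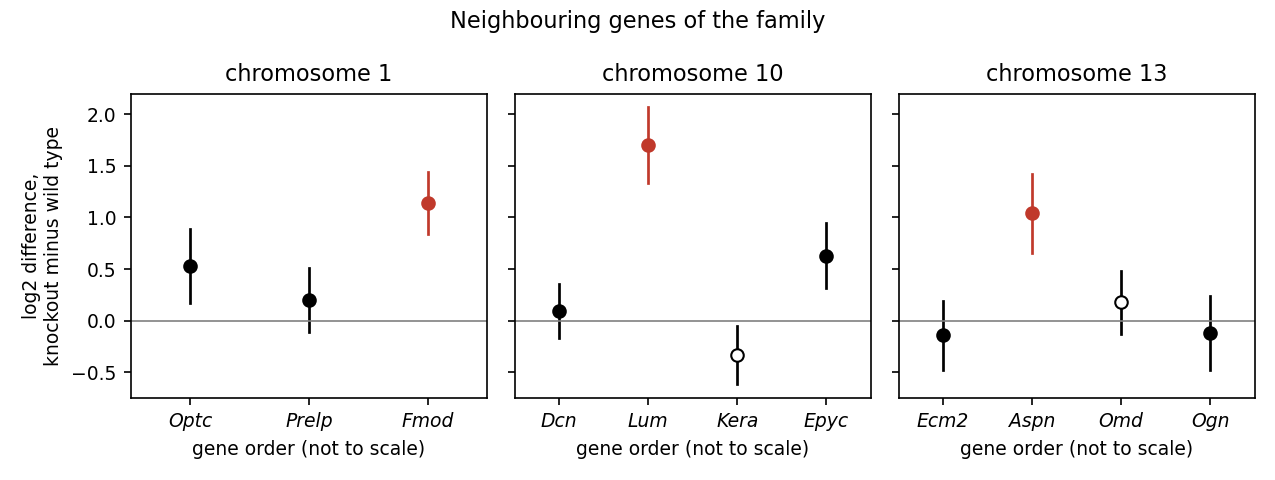
Log2 difference, knockout minus wild type, with 95% intervals, for family genes in their order along 3 chromosomes; open points lie below background in both genotypes. In each panel 1 gene (red: Fmod, Lum, Aspn) passed an adjusted p of 0.05, at differences of 1.14, 1.70 and 1.04.

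Genes that act with these proteoglycans were taken from lists of binding partners, modifying enzymes and proteases. Over the lists 105 genes were tested, including the 7 family genes, and 9 rose and 0 fell in knockout, where 1.90% of all genes were higher. Of 17 genes for fibril-forming and fibril-associated collagens and collagen VI, 5 rose and 12 did not pass. The median difference of the list was -0.07, with 8 genes higher and 9 lower. Col12a1, which encodes a collagen on the fibril surface, had 10.56 and 10.56 in knockout, against 9.37 and 9.34 in wild type, and rose 2.30-fold (limma adjusted p = 0.0147). Col14a1, a related surface collagen, had 9.70 and 9.84 in knockout, against 8.75 and 8.95 in wild type, and rose 1.89-fold (limma adjusted p = 0.0319).

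Both chains of collagen I, the main fibril collagen, also rose. Col1a1 had 10.67 and 11.01 in knockout, against 9.74 and 10.03 in wild type, a 1.94-fold difference, and Col1a2 rose 1.73-fold (limma adjusted p = 0.0416 and 0.0454). Col6a3, a chain of the microfibril collagen VI, to which biglycan and decorin bind, rose 1.52-fold (limma adjusted p = 0.0499). A further quantile normalization ended the calls of Col1a1, Col1a2 and Col6a3 (adjusted p = 0.0647, 0.0669 and 0.0725) and left 2 of the 5. The calls of Col1a2 and Col6a3 were also lost with centred arrays (adjusted p = 0.0506 and 0.0530), with every probe set tested (0.0517 and 0.0562) and without knockout replicate 2 (0.0650 and 0.0809), and that of Col6a3 with array weights (0.0515), so that they held in 7 and 6 of the 13 alternatives.

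Procollagen processing and cross-linking genes did not pass over all genes in the limma fit: 0 of 17, and the median was 0.22. The unadjusted limma p was below 0.05 for 3 higher genes and 1 lower, where 12.7% of all genes were higher and 13.8% lower. Bmp1, a protease that trims procollagen and also biglycan, differed by 0.59 on the log2 scale (limma adjusted p = 0.0767). It passed without knockout replicate 1 (adjusted p = 0.0425), within a range of 0.0297 to 0.216 over the alternatives. Serpinh1, a collagen chaperone, differed by 0.44 and Adamts3, a procollagen protease, by 0.33.

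Of 34 genes for the synthesis and sulfation of the sugar chains, 1 rose and 33 did not pass, a share near the 1.90% of all genes that were higher. The median was 0.02, with 17 genes higher and 17 lower by sign, and the log2 differences ran from -0.68 to 0.97. The unadjusted limma p was below 0.05 for 11 higher genes and 6 lower, where 12.7% of all genes were higher and 13.8% lower. Slc35d1, which carries nucleotide sugars for chondroitin sulfate into the endoplasmic reticulum, had 8.39 and 8.59 in knockout, against 7.67 and 7.51 in wild type, a 1.87-fold rise (limma adjusted p = 0.0332; 0.0522 with a further quantile normalization). Chst2, a sulfotransferase that acts on N-acetylglucosamine, had 8.83 and 9.46 in knockout, against 8.07 and 8.26 in wild type. Its knockout mice were unequal, and it did not pass (limma adjusted p = 0.0586), although it did without knockout replicate 1 (0.00119) and with robust eBayes (0.0413). Slc26a2, the sulfate transporter that supplies these chains, had 9.77 and 9.83 in knockout, against 9.29 and 9.32 in wild type (limma adjusted p = 0.0658).

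Of 19 tested genes for ligands and cell surface receptors, 3 rose and 16 did not pass, where 1.90% of all genes were higher. The median was 0.19. The unadjusted limma p was below 0.05 for 6 higher and 2 lower genes, where 12.7% of all genes were higher and 13.8% lower. The 3 that rose encode secreted factors. Tgfb1 and Ccn4, also secreted factors of the list, differed by 0.22 and -0.38 on the log2 scale, without passing. Tgfb3 had 9.82 and 9.90 in knockout, against 8.72 and 8.97 in wild type, and rose 2.02-fold (limma adjusted p = 0.0274). Tgfb2 had 8.58 and 8.83 in knockout, against 7.94 and 7.93 in wild type, and rose 1.71-fold (limma adjusted p = 0.0403). Ccn2, for connective tissue growth factor, had 10.32 and 10.66 in knockout, against 9.20 and 9.58 in wild type, and rose by 1.10 on the log2 scale (limma adjusted p = 0.0368). A further quantile normalization ended the calls of Tgfb2 and Ccn2 (adjusted p = 0.0628 and 0.0595), and leaving out knockout replicate 2 also ended that of Tgfb2 (0.0598).

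Among 13 proteases that cut family members none passed over all genes in the limma fit, and the median was -0.04. The unadjusted limma p was below 0.05 for 4 higher and 2 lower genes, where 12.7% of all genes were higher and 13.8% lower. Mmp2, a gelatinase, had 10.76 and 11.09 in knockout, against 9.76 and 10.26 in wild type (limma adjusted p = 0.0586). Adamts4, a proteoglycan-cutting enzyme, had 6.87 and 6.93 in knockout, against 7.38 and 7.61 in wild type (limma adjusted p = 0.0587). Mmp2 passed without knockout replicate 1 (adjusted p = 0.00686) and with robust eBayes (0.0405), and Adamts4 passed, as lower, with centred arrays (0.0494) and with robust eBayes (0.0446).

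**Figure D4:**
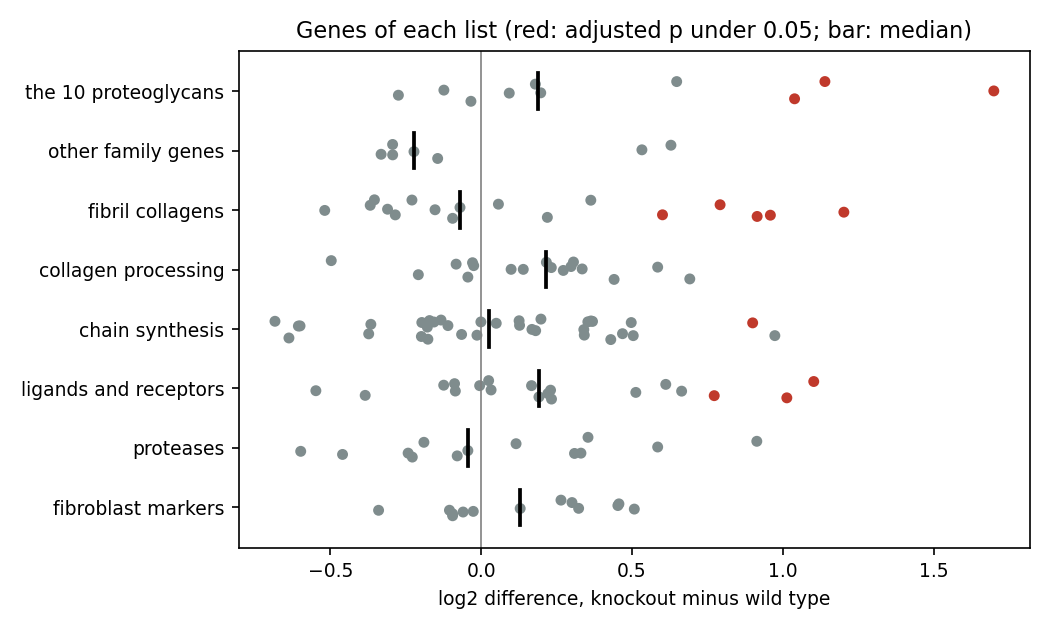
Log2 difference, knockout minus wild type, with 1 point per gene and a black bar at the median of each list; red points passed an adjusted p of 0.05. The medians lie between -0.22 (other family genes) and 0.22 (collagen processing), and the red points, 3 proteoglycans and 9 genes of the other lists, all lie above 0.

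The proteoglycan genes were set beside markers of the cells that could carry them. None of the 13 fibroblast markers passed over all genes in the limma fit (unadjusted p below 0.05 for 3 higher and 0 lower genes), and the median was 0.13. Of the 13, 7 were higher and 6 lower, between Pdgfra, a growth factor receptor, with 0.51, and Dpep1, a membrane dipeptidase, with -0.34. Of 10 smooth muscle markers, 1 rose, Myocd, with 8 higher and 2 lower by sign (unadjusted p below 0.05 for 5 higher and 0 lower genes) and a median of 0.27. Of 12 urothelium markers, 1 rose, Trp63, but all 12 were higher with genotypes that did not overlap (unadjusted p below 0.05 for 12 higher and 0 lower genes), and the median was 0.65. Over all genes 1.90% passed and were higher, and 28.0% were higher with genotypes that did not overlap. At an unadjusted limma p below 0.05, 12.7% of all genes were higher and 13.8% lower. The 9 adipocyte markers were all lower without passing in the limma fit (unadjusted p below 0.05 for 0 higher and 5 lower genes), and the median was -0.51. The part of these markers in the rises of Lum, Fmod and Aspn was not tested.

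Markers of cartilage and tendon, tissues rich in several of these proteoglycans, were mixed in level. Of 12 tested, Acan, Matn1, Matn3, Tnmd, Mkx and Hapln1 lay below background on all 4 arrays, and none of the 12 passed in the limma fit (unadjusted p below 0.05 for 0 higher and 5 lower genes). By that unadjusted measure 12.7% of all genes were higher and 13.8% lower. The list median was -0.27. By sign all 12 were lower, 11 with genotypes that did not overlap, where 32.0% of all genes lay lower in that way. The 6 named have no measured direction. The other 6 lay above background in at least 1 genotype. Among them Sox9 had 8.29 and 8.28 in knockout, against 8.57 and 8.54 in wild type. Col2a1 had a log2 difference of -0.52 (limma adjusted p = 0.0688). Dim genes as a whole read lower in knockout, and the part of this in the list was not tested. Macrophage markers had a median of -0.13, with none of 10 past the threshold and 0 at an unadjusted p under 0.05. None of 11 kidney tubule and podocyte markers passed in the limma fit (unadjusted p below 0.05 for 1 higher and 1 lower), and the median was 0.90. Without knockout replicate 1, the mouse with the higher kidney markers, the log2 differences were 1.84 for Lum, 1.03 for Fmod and 0.97 for Aspn, with limma adjusted p values of 0.000169, 0.00320 and 0.00859. The spread in that fit comes from the wild type pair alone, to which the lone knockout mouse is assumed to conform, and the part of the kidney markers was not tested.

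The calls rested on having both wild type mice. With wild type replicate 1 left out, Lum differed by 1.85, Fmod by 1.08 and Aspn by 1.24, all at a limma adjusted p of 0.183. Without wild type replicate 2 the differences were 1.55, 1.20 and 0.83, at adjusted p values of 0.200, 0.202 and 0.216. The lone wild type mouse is assumed there to vary like the knockout mice, and no gene of the whole array passed in either fit. At an unadjusted p below 0.05, 1802 genes were higher and 2451 lower in the first of these fits, and 1791 and 1288 in the second.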

How the data were processed

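Total RNA (500 ng per mouse) was hybridised to Affymetrix whole-transcript arrays, per the labels' protocols. The deposited values are log2 expression per probe set; the submitters' processing notes list RMA with R 2.15.0 and limma 3.12.1, and no genome build is stated in the sources used here. RMA makes array distributions alike, which can reduce a change shared by most genes. Of 23309 probe sets, 20728 had 1 symbol in the platform annotation, 1174 several and 1407 none; only the first kind was used, with the brightest probe set per gene (804 genes had over 1), leaving 19296 genes, 14227 of them above background. The genotypes were compared with lmFit and eBayes of limma 3.58.1 (R 4.3.3), knockout minus wild type. P-values were adjusted over all genes by the Benjamini-Hochberg method at 0.05. On simulated data the test recovered 1.28% of changes of 0.5 on the log2 scale, 76.8% of changes of 1 and 99.1% of changes of 2. The test thus missed most changes of 0.5 and some changes of 1. A gene that did not pass may therefore still differ by such sizes. The labels call the mice biological replicates. Same-numbered mice did not deviate together (r = -0.03 over genes), so no pairing was used. Genes and lists were chosen with earlier results of these data known. Named genes are the family, the 3 of smallest p above background in each partner list, and Mir143 and Mir145a. Col1a2, Col6a3, Tgfb1, Ccn4 and the markers named were chosen after their values were seen. The alternatives are given in the closing section. The gene aliases Ctgf and Wisp1 were tested as Ccn2 and Ccn4.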

Additional observations from a re-analysis of the deposited data

How the results depend on the processing

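Over 13 alternatives, 3 or 4 of the 10 proteoglycan genes were higher and 0 lower in knockout, except without wild type replicate 1 or 2, where 0 were higher; leaving out 1 mouse gave 0 to 4. Lum, Fmod, Aspn, Bgn, Dcn and Prelp kept a positive difference in all 13, and Chad a negative one; Ogn and Podn, near 0, took both signs. Over all genes, a further quantile normalization gave 164 higher and 50 lower, robust eBayes 655 and 247, and leaving out 1 mouse 0 to 1115 higher and 0 to 629 lower. The lower count was 148 with centred arrays, 147 with dim genes left out and 57 with every probe set tested. Over the partner lists, where 9 rose and 0 fell, 3 were higher with a further quantile normalization; robust eBayes gave 14 higher and 1 lower, centred arrays 1 lower, and leaving out 1 mouse 0 to 14 higher and 0 to 6 lower. The replicate number as a block, which pairs no mice here, gave 1164 higher and 758 lower over all genes, 18 and 5 over the partner lists, and 4 proteoglycan genes higher, Bgn (adjusted p = 0.0223) being the addition. The cause of these shifts was not tested. For genes near the background level of log2 6.58, such as Chad, the size of a change is poorly measured.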
